A study of Mus musculus with 45 samples.

Results

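Messenger RNA turnover was followed here for 9 genes whose proteins bind 3′ untranslated regions (3′ UTRs) and alter how long an mRNA lasts. The genes were *Elavl1*, *Elavl2*, *Elavl3*, *Elavl4*, *Zfp36*, *Zfp36l1*, *Zfp36l2*, *Pum2* and *Khsrp*. They were taken by name, as 9 of the 53491 genes in the tables, for what their proteins do. Each gene was described by its mRNA level, its label content and its half-life at 3 stages of mouse cortical development.

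ELAVL proteins bind U-rich and AU-rich elements and are best known for stabilizing the mRNAs that carry them. *Elavl1* (HuR) is made in most cell types, whereas *Elavl2* (HuB), *Elavl3* (HuC) and *Elavl4* (HuD) mark the neuronal lineage. ZFP36 proteins bind the same kind of element through CCCH zinc fingers and recruit the CCR4-NOT deadenylase, which shortens the poly(A) tail and speeds decay. Pumilio proteins such as PUM2 bind a UGUA-containing element and also recruit deadenylases, and KHSRP (KSRP) promotes decay of AU-rich mRNAs through its KH domains.

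Wild-type mouse embryos provided the cells, taken from dissected cortex at embryonic days E11.5, E14.5 and E16.5, with 15 libraries per stage and 45 in all. For each replicate the cortices of several embryos were pooled, 7 at E11.5 and 2 at the later stages. Cells were dissociated, grown in a medium that permits progenitor division, and given 100 μM 4-thiouridine (4sU) for 20 h. A chase with 5 mM uridine followed, and RNA was taken at 0, 2, 4, 8 and 12 h from 5 wells of each pool, with 3 replicates (A, B and C) per stage. All groups therefore share the genotype, the label and the culture, and the values describe cultured cortical cells and not intact tissue. In SLAM-seq, alkylated 4sU is read as a T-to-C conversion, so the share of covered T positions that are converted measures how much of a transcript was made during labelling.

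Libraries held 15.9 to 43.9 M recovered reads and 228.7 to 629.1 M covered T positions. Summed radial glia and progenitor markers at 0 h were 7954 to 8460 CPM (reads scaled to the depth of the library) at E11.5, 2519 to 3207 at E14.5 and 989 to 1085 at E16.5. Summed neuronal markers ran the other way, from 2713 to 3256 at E11.5 up to 7844 to 8169 at E16.5. E11.5 cultures also held more erythroid marker RNA (1466 to 3204 against 78.9 to 189.7 later) and more mural and meningeal marker RNA (362 to 553 against 6.36 to 18.01). Most of the erythroid sum at E11.5 was *Hbb-y*, with a mean of 1745 CPM there and 0.176 at E16.5. *Hbb-bs* of that list overlapped between E11.5 (96.6 to 151) and E16.5 (53.6 to 131). No marker of these 4 lists was at 0 in all replicates of a stage. In bulk RNA, fewer cells of a type and less RNA per cell cannot be told apart.

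The 3′ UTRs of the 9 genes were searched for elements that AU-rich element binders and Pumilio proteins recognize. The AU-rich heptamer TATTTAT was searched on the transcript strand of each gene's longest annotated 3′ UTR and was present in 8 of the 9 genes, against 27.6% of the 20992 genes with an annotated 3′ UTR. All of these 3′ UTRs except that of *Zfp36* are longer than the median of 962 bases over all genes. Of 3′ UTRs within 25% of the length of *Elavl1*, *Elavl2* or *Zfp36*, 60.9%, 46.3% and 19.2% held a match. *Elavl1* held 8 matches in 4218 bases, and only 0.33% of 3′ UTRs within 25% of that length held as many. *Zfp36* held 3 in 774 bases, which 1.28% of 3′ UTRs of similar length reached. *Zfp36l1* and *Zfp36l2* held 3 each, in 1835 and 1822 bases, as did *Elavl2* and *Elavl3*. In the order of these 4 genes, 4.03%, 3.97%, 6.48% and 10.6% of 3′ UTRs of similar length held as many. *Elavl4* held 2 and *Pum2* 1, and *Khsrp* had no match in 1642 bases. Matches may overlap each other, and every match of the nonamer TTATTTATT, found in 7.67% of genes, contains one of the heptamer. The Pumilio octamer TGTANATA, where N is any base, was found in 3 of the 9 genes, with 3 matches in *Elavl2*, 2 in *Pum2* and 1 in *Elavl4*, against 23.3% of all genes. The share of 3′ UTRs of similar length with at least 1 octamer ran from 15.5% for *Zfp36* to 52.8% for *Elavl1*.

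The windows below show the 30 bases with the densest heptamers of *Elavl1* and of the 3 *Zfp36* genes, and an octamer of *Elavl2* and *Pum2*, to show the density of the elements in these genes. Capitals mark the matches, coordinates are those of GRCm38 (mm10), and the bases are those of the RefSeq copy of that genome.
Elavl1, chr8:4285777-4285806, minus strand: tTATTTATTTATTTATTTATtttTATTTAT
Zfp36, chr7:28376958-28376987, minus strand: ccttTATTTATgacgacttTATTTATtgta
Zfp36l1, chr12:80108422-80108451, minus strand: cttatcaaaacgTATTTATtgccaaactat
Zfp36l2, chr17:84184914-84184943, minus strand: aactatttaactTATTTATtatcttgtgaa
Elavl2, chr4:91251942-91251971, minus strand: gctttgtgtgaTGTAAATAagaccttgtgt
Pum2, chr12:8750154-8750183, plus strand: gtttatagagaTGTATATAgaattatagtt
The *Elavl1* window holds 5 heptamers, all but 1 of them overlapping, and the *Zfp36* window 2. A match is a description of the sequence and does not show binding.

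*Elavl2* and *Elavl3* mRNAs rose with stage and *Zfp36l1* fell. At 0 h of chase, between E11.5 and E16.5, *Elavl3* rose 3.32-fold and *Elavl2* 2.95-fold, whereas *Zfp36l1* fell 6.14-fold. *Pum2* and *Elavl1* did not pass this test in any pair of stages. Here a gene "rose" or "fell" where its adjusted p in edgeR's quasi-likelihood test over 18408 genes was under 0.05, and it was "called" where the change was also over 2-fold. All 9 genes passed the filter on low counts.

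Counts of called genes are read against the background of each comparison. From E11.5 to E14.5, 1 of 9 was called higher and 1 lower, against 8.14% and 8% of all genes. From E14.5 to E16.5 none was called higher and 1 lower, against 7.19% and 5.92%. From E11.5 to E16.5, 2 were called higher and 1 lower, against 14.7% and 14.6%. At the adjusted p alone, 3 rose and 2 fell, 3 rose and 3 fell, and 3 rose and 3 fell, in the same order. The shares of all genes were 25.1% higher and 23.5% lower, 24.1% and 25.4%, and 31.4% and 33.1%. The median log2 change of the 9 was 0.13, 0.02 and 0.13, beside -0.01, -0.00180 and -0.04 over all genes. The 3 comparisons share libraries.

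**Figure D1:**
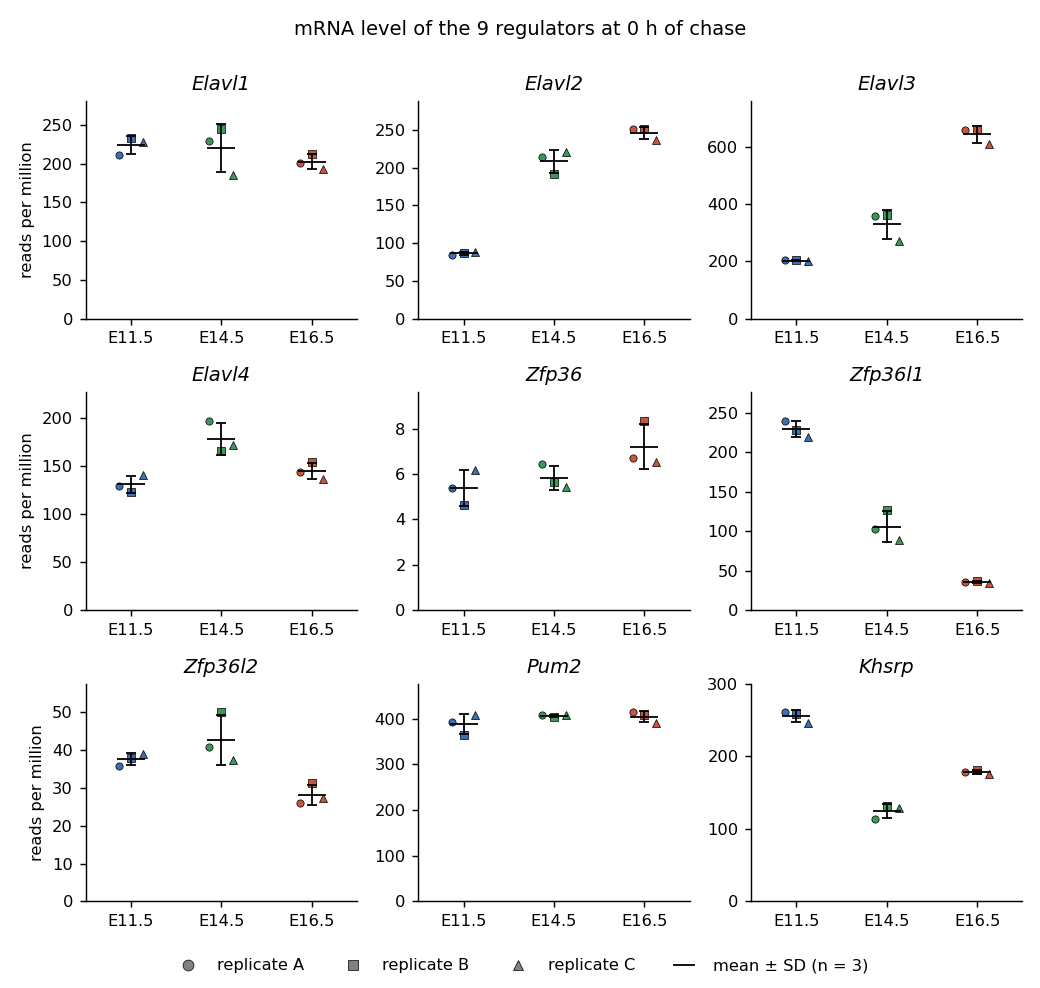
mRNA level of each of the 9 genes at 0 h of chase, in CPM (vertical axes start at 0 and differ between panels), by stage; points are replicates A, B and C, bars the mean ± SD (n = 3). Elavl2 and Elavl3 climb and Zfp36l1 falls with no overlap between stages, whereas Elavl1 and Pum2 overlap at all 3.

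Among the stabilizing proteins, *Elavl2* was measured at 84.5, 87.3 and 87.8 CPM in the E11.5 replicates, 214, 191 and 220.2 at E14.5, and 251, 251 and 237 at E16.5. No replicate of one stage reached those of another, and most of the rise lay in the first interval. The log2 change was 1.30 ± 0.07 in the first interval (SE; n = 3 per stage; adjusted p = 6.9e-09) and 0.27 ± 0.07 in the second (adjusted p = 0.0044).

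*Elavl3* was at 205, 203 and 199.8 CPM at E11.5, at 357, 360.3 and 271 at E14.5, and at 657, 660.3 and 609 at E16.5. The stages did not overlap, and E14.5 replicate C was the lowest of its group. The log2 change was 0.74 ± 0.09 (adjusted p = 2.9e-05) and then 0.99 ± 0.09 (adjusted p = 2.8e-06). The second step was just under the 2-fold limit and passed it with DESeq2 (1.02) and when any of 4 replicates was left out: 1.06 without replicate A or B of E14.5, and 1.01 or 1.03 without replicate A or C of E16.5. Without replicate C of E14.5 it was 0.87.

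*Elavl4* peaked at the middle stage. Its replicates read 129, 123 and 139.8 at E11.5, 197, 165 and 171 at E14.5, and 143, 154 and 136 at E16.5. E14.5 lay above both other stages with no overlap, and E11.5 and E16.5 overlapped. It rose by 0.45 ± 0.08 (log2; adjusted p = 0.00061) and then fell by 0.26 ± 0.08 (adjusted p = 0.0195). The later fall did not pass without replicate A of E14.5 (-0.18; adjusted p = 0.10), or without replicate A (-0.23; adjusted p = 0.090) or C (-0.22; adjusted p = 0.082) of E16.5.

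The broadly expressed *Elavl1* was at 224 ± 11.8 (SD, n = 3), 219.8 ± 31.1 and 203 ± 9.61 CPM, so the 3 stages differed by less than the spread at E14.5. Its log2 change was 0.05 ± 0.09 and -0.08 ± 0.09. Without E14.5 replicate C, the lowest of that stage, the second value was -0.19 with an adjusted p of 0.045, and in libraries at 12 h it was -0.22 (adjusted p = 0.010).

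Among the destabilizing proteins, *Zfp36l1* was at 239.9, 228 and 219.7 CPM at E11.5, at 102, 126 and 88.2 at E14.5, and at 36.0, 37.3 and 34.6 at E16.5. Each stage lay below all replicates of the one before. The log2 change was -1.06 ± 0.10 (adjusted p = 2.9e-06) and then -1.56 ± 0.11 (adjusted p = 2.1e-07). The first fall was near the 2-fold limit, and without E14.5 replicate C it was -0.94 with an adjusted p of 7.9e-06. Radial glia marker RNA was lower beside it, as neuronal marker RNA was higher beside *Elavl2* and *Elavl3*, and the part of cell type in these changes was not tested. Exons of *Zfp36l1* overlap the gene *Gm26669* on the opposite strand over 55.9% of their length (1672 bases). The libraries were made with a stranded kit, and the sources used here do not say whether counting used strand. If it did not, the value of *Zfp36l1* includes reads of both genes.

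*Zfp36l2* changed less. It was at 35.8, 38.0 and 39.0 CPM at E11.5, at 40.8, 50.1 and 37.3 at E14.5, and at 26.0, 31.2 and 27.4 at E16.5. The first 2 stages overlapped and E16.5 lay below both. It fell by 0.60 ± 0.11 on the log2 scale from E14.5 to E16.5 (adjusted p = 0.00065). From E11.5 to E16.5 the change was -0.35 ± 0.11 (adjusted p = 0.0136), and without E16.5 replicate A it was -0.26 (adjusted p = 0.092).

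*Zfp36* (tristetraprolin) was the scarcest of the 9. Its replicates read 5.40, 4.62 and 6.19 CPM at E11.5, 6.43, 5.64 and 5.45 at E14.5, and 6.74, 8.37 and 6.54 at E16.5. E16.5 lay above the other stages, which overlapped. From E14.5 to E16.5 the log2 change was 0.35 ± 0.14 (adjusted p = 0.056), and with DESeq2 0.38 (adjusted p = 0.022). It rose by 0.48 ± 0.14 on the log2 scale from E11.5 to E16.5 (adjusted p = 0.0098), and without E16.5 replicate B the change was 0.36 (adjusted p = 0.057).

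*Pum2* was at 389 ± 21.8, 406 ± 2.88 and 405 ± 12.8 CPM, with log2 changes of 0.10 ± 0.06 and 0.02 ± 0.06. From E11.5 to E16.5 its change was 0.13 (adjusted p = 0.079), which passed with RLE factors (0.15, adjusted p = 0.043) and without E11.5 replicate C (0.16, adjusted p = 0.049). *Khsrp* moved in both directions: 261, 259 and 246 at E11.5, 114, 131 and 129 at E14.5, and 179, 182 and 175 at E16.5. Its 3 stages did not overlap, with E14.5 lowest. It fell by 0.96 ± 0.06 (adjusted p = 4.6e-08) and then rose by 0.50 ± 0.06 (adjusted p = 2.1e-05). In the libraries at 12 h of chase the first fall was past 2-fold, at -1.08.

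Set against each other per kilobase of exon, the neuronal Elavl genes overtook the Zfp36 and Pumilio genes. The summed level of *Elavl2*, *Elavl3* and *Elavl4* was 64.0 ± 1.39 (SD, n = 3) CPM per kilobase at E11.5, and it climbed through 105.9 ± 8.22 to 149.6 ± 6.53 at the later stages. That of *Zfp36*, *Zfp36l1*, *Zfp36l2* and *Pum2* was 142 ± 3.82, 105.1 ± 7.98 and 77.9 ± 2.60. The ratio of the first to the second was 0.436, 0.453 and 0.460 in the E11.5 replicates, 1.10, 0.932 and 0.998 at E14.5, and 1.94, 1.93 and 1.90 at E16.5. Against the 3 Zfp36 genes alone the ratio went from 0.721 ± 0.03 to 2.19 ± 0.32 and 6.78 ± 0.31. These ratios were not tested, and they rest on *Elavl2*, *Elavl3* and *Zfp36l1*.

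Per kilobase, *Zfp36l1* had the highest level of the 9 at E11.5 (76.6 ± 3.40), ahead of *Khsrp* (59.2 ± 1.85) and *Pum2* (53.6 ± 3.01). *Pum2* led at E14.5 (56.0 ± 0.40), with *Elavl3* next (47.8 ± 7.31). At E16.5 *Elavl3* led (93.2 ± 4.14) and *Zfp36l1* was at 12.0 ± 0.46. *Zfp36* was lowest at every stage, from 1.56 ± 0.23 to 2.08 ± 0.29. Neighbours in this order whose replicates overlapped were *Zfp36l2* (10.6 ± 0.46) and *Elavl2* (10.4 ± 0.22) at E11.5. At E14.5 they were *Elavl3* and *Zfp36l1* (35.4 ± 6.46), *Zfp36l1* and *Elavl4* (33.0 ± 3.14), *Khsrp* (28.8 ± 2.17) and *Elavl2* (25.1 ± 1.84), and *Elavl2* and *Elavl1* (21.2 ± 3.0). At E16.5 they were *Elavl2* (29.6 ± 0.99) and *Elavl4* (26.8 ± 1.60).

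A list of 42 other regulators that bind 3′ UTRs was examined beside the 9. At the adjusted p, 11 rose and 9 fell from E11.5 to E14.5, 16 rose and 10 fell from E14.5 to E16.5, and 19 rose and 15 fell from E11.5 to E16.5. The shares of all genes were 25.1% higher and 23.5% lower, 24.1% and 25.4%, and 31.4% and 33.1%. The median log2 change of the 42 was 0.00381, 0.09 and 0.16. Of the 42, those called over 2-fold numbered 6 higher and 0 lower, 1 higher and 0 lower, and 8 higher and 4 lower. Of all genes, 8.14% and 8%, 7.19% and 5.92%, and 14.7% and 14.6% were called. Those with the largest rises from E11.5 to E16.5 were the CELF genes *Celf5* (2.13 ± 0.10, log2 ± SE) and *Celf6* (2.04 ± 0.14) and the cytoplasmic polyadenylation element binders *Cpeb3* (2.26 ± 0.12) and *Cpeb1* (2.23 ± 0.36). The 4 that fell over 2-fold were *Msi2* (-1.66 ± 0.10), a Musashi protein of neural progenitors, *Samd4* (-1.29 ± 0.11), which encodes a Smaug-type repressor, *Fubp3* (-1.22 ± 0.07), a relative of *Khsrp*, and *Qk* (-1.11 ± 0.07), the Quaking gene.

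Profiles over the 15 stage-by-time means most like those of the 9 were found by Pearson's r on log2(CPM + 0.5) among 9169 protein-coding genes. For *Elavl2* they were *Vxn*, *Pianp* and *Slc6a15* (r = 0.996 each). For *Elavl3* they were *Epb41l1*, *Ncoa1* and *Ttc28* (0.994 to 0.995), for *Khsrp* *Nectin1*, *Tenm3* and *Nectin3* (0.983 to 0.988) and for *Zfp36l1* *Ctnna1*, *Flna* and *Dmrt3* (0.997 to 0.998). The points share stages and libraries, so these values are descriptions.

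In edgeR's fits on scaled counts, levels of the 9 mRNAs changed little over the 12 h of chase. Across 108 tests of a chase time against 0 h within a stage, log2 changes lay between -0.19 and 0.28. The adjusted p was under 0.05 in 7 tests of 4 genes. Over all genes, the share past that threshold at 2, 4, 8 and 12 h was 1.33%, 6.24%, 14.1% and 23% for E11.5, 1.38%, 6.61%, 6.19% and 15% for E14.5, and 5.8%, 14%, 19.4% and 26.2% for E16.5. The test that passed at E11.5 was that of *Pum2* at 2 h (0.23 ± 0.05). Those that passed at E16.5 were *Pum2* at 2 h (0.17 ± 0.04) and 4 h (0.16 ± 0.04), *Elavl2* at 4 h (0.18 ± 0.04) and 8 h (0.13 ± 0.04), *Elavl4* at 8 h (0.17 ± 0.05) and *Elavl1* at 12 h (-0.19 ± 0.05). No test passed at E14.5. All chase times of a stage share its 0 h libraries.

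**Figure D2:**
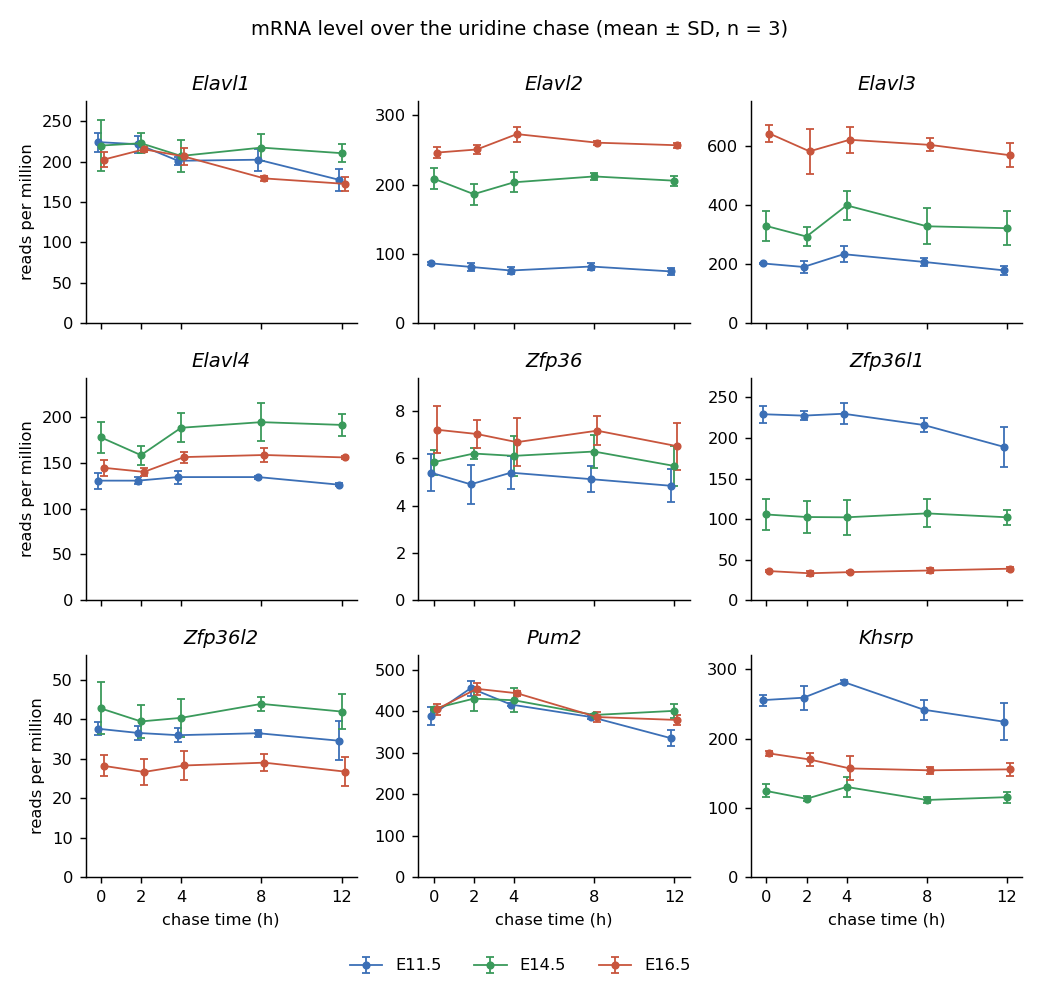
mRNA level in CPM (vertical axes start at 0) against hours of uridine chase, with 1 line per stage; points are means and bars SD (n = 3). Some means vary with time within a stage, as for Pum2 at E11.5 (335 to 456) and Elavl3 at E14.5 (294 to 399). CPM lack the further scaling of libraries used in the edgeR fits. The means of Elavl2, Elavl3 and Zfp36l1 keep the order of stages seen at 0 h at every time.

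With the pool of cells as a replicate block, 19 of the 108 tests passed, in the order of stages 3, 1 and 15. The shares of all genes given above are those of the fit without the block. Shares with the block are not given here, so the larger count cannot be read as particular to these genes. Among the added calls were *Elavl3* at E14.5 4 h (0.29; adjusted p = 0.0045), and at E16.5 *Khsrp*, lower at 4, 8 and 12 h (-0.16, -0.19 and -0.16), and *Zfp36l1*, higher at 12 h (0.16; adjusted p = 0.0093). Leaving out single pools also moved these calls, and *Pum2* at E11.5 2 h did not pass without replicate A (adjusted p = 0.51) or B (adjusted p = 0.68). At E16.5, 1 of the 6 calls was kept without A (*Pum2* at 4 h), 1 without B (*Elavl2* at 4 h) and 1 without C (*Elavl1* at 12 h), where *Elavl1* at 8 h passed as well.

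Whether the 12 h change differed between stages was tested as an interaction. None of the 9 passed in any pair of stages, by edgeR at the adjusted p or at an unadjusted p under 0.05, where 5.32% (E14.5 against E11.5), 7.36% (E16.5 against E11.5) and 0.43% (E16.5 against E14.5) of genes passed the adjusted p. With the replicate block 1 passed, *Zfp36l1*, for E16.5 against E11.5, and the share of all genes in that fit is not given here. *Zfp36* is an immediate early gene, induced quickly by growth factors and stress, and its 5 means stayed within 4.84 to 5.40, 5.68 to 6.29 and 6.52 to 7.21 CPM at the 3 stages. Of 10 other immediate early genes, 5 were lower and 2 higher at 12 h than at 0 h at E11.5, 4 were lower at E14.5 and 9 at E16.5. Their difference from *Zfp36*, which had a median of 203 reads per library, was not tested.

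The 3 Zfp36 genes had some of the shortest half-lives measured, and *Elavl3* the longest of the 9. Half-lives came from the decay of the conversion rate over the chase, and a transcript counted as measured at a stage where all 3 replicates passed the study's coverage and fit filters. That left 10858, 10686 and 11850 transcripts at the 3 stages, with medians of 4.43, 4.60 and 3.48 h. Hours are given without subtracting background conversion, which was estimated at 0.11% to 0.14% per replicate from the 12 h libraries. Subtracting it shortened the mean half-life of each measured gene of the 9 at each stage.

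*Zfp36l1* had a half-life of 2.18, 2.19 and 1.75 h in the E11.5 replicates, of 2.20, 2.12 and 2.03 h in those of E14.5, and of 1.85, 2.18 and 1.94 h in those of E16.5. Only 1.25%, 1.42% and 8.49% of measured transcripts were shorter. *Zfp36l2* lay beside it, at 1.98, 2.42 and 1.45 h, then 2.16, 2.02 and 1.84 h, then 2.01, 2.23 and 1.79 h, with 0.84%, 1.10% and 8.98% shorter. The stages of both genes overlapped, while the median of all transcripts was lowest at E16.5.

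*Zfp36* was shorter still, with 1.52, 1.42 and 1.71 h in the E14.5 replicates and 1.20, 1.62 and 0.932 h in those of E16.5, where 0.12% and 0.15% of transcripts were shorter. It was not measured at E11.5, because the fit to replicate A had an R2 of 0.097. Its depth was low: 20 to 28 converted T positions per library at 0 h at E11.5 and 4 to 10 at 12 h, and 2 to 5 at 12 h at E16.5. The precision of its half-life is limited by these counts.

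*Elavl3* had a half-life of 5.64, 6.17 and 4.74 h in the E11.5 replicates, of 5.89, 6.24 and 6.27 h in those of E14.5, and of 4.45, 4.66 and 4.60 h in those of E16.5. It was above the median of all transcripts at every stage, at percentiles of 73.7, 79.9 and 73.9, and E16.5 lay below both other stages. With background conversion subtracted, its means were 4.27 ± 0.38, 4.92 ± 0.23 and 4.18 ± 0.12 h, so E11.5 and E16.5 were then close. *Elavl2* was near the median (4.63 ± 0.67, 4.50 ± 0.17 and 3.44 ± 0.08 h; SD, n = 3), as was *Elavl4* (4.09 ± 0.48, 4.26 ± 0.15 and 3.45 ± 0.18 h). At E14.5 and E16.5 every replicate of *Elavl3* lay above every replicate of the other two, and at E11.5 they overlapped.

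*Elavl1* had half-lives of 3.78 ± 0.32, 4.05 ± 0.25 and 2.83 ± 0.11 h, at the 31.9, 35.3 and 31.3 percentiles. *Pum2* was at 3.42 ± 0.46, 3.58 ± 0.20 and 2.72 ± 0.11 h and *Khsrp* at 4.13 ± 0.58, 4.30 ± 0.21 and 3.09 ± 0.10 h. Of the measured genes, 6 of 8, 8 of 9 and 8 of 9 lay below the stage median.

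**Figure D3:**
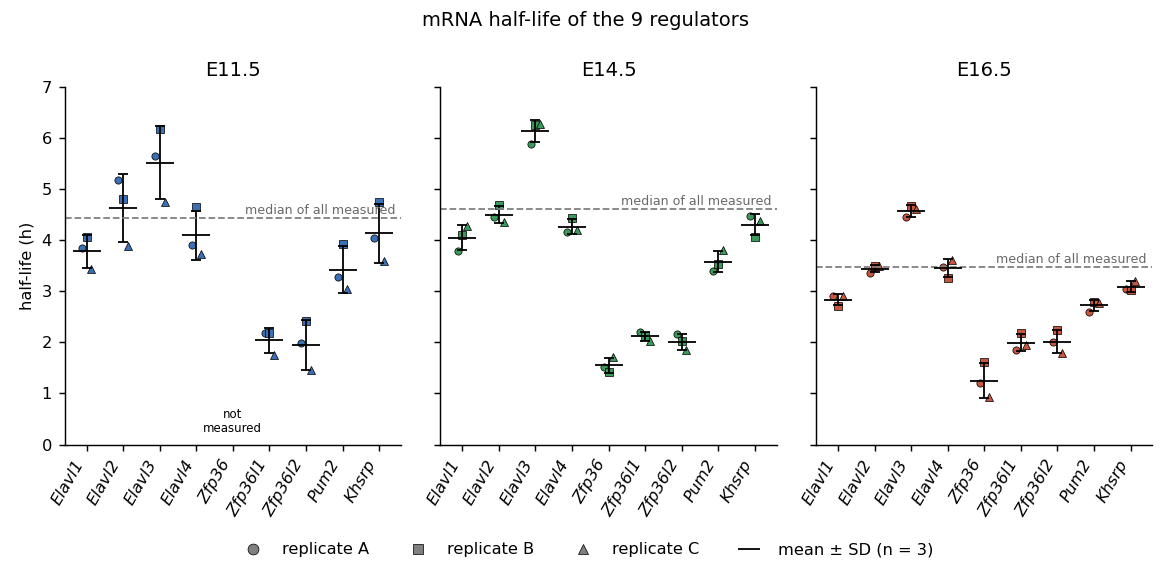
Half-life in hours of each of the 9 mRNAs, with 1 panel per stage (vertical axis from 0); points are replicates A, B and C, bars the mean ± SD (n = 3), and the dashed line the median of all measured transcripts. The Zfp36 genes lie lowest in every panel and Elavl3 has the highest mean; Zfp36 was not measured at E11.5.

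No stage difference in relative half-life was found for these genes. Half-lives of the 9505 transcripts measured at all stages were z-scored within each replicate and tested with limma. None of the 8 members in that set passed the F test at the adjusted p, against 3.15% of transcripts. At an unadjusted p under 0.05, *Zfp36l1* and *Zfp36l2* passed, with z-scores of -1.34 ± 0.09 and -1.40 ± 0.20 at E11.5 and of -1.01 ± 0.10 and -1.00 ± 0.15 at E16.5 (adjusted p = 0.17 and 0.20). In hours, without z-scoring, 2 of the 8 passed the F test, *Elavl1* and *Elavl3*. In the pairwise limma test of E16.5 against E14.5 in hours 4 passed, *Elavl1* (-1.21 h, adjusted p = 0.022), *Elavl3* (-1.57 h, 0.023), *Khsrp* (-1.21 h, 0.031) and *Elavl2* (-1.05 h, 0.048). Hours retain the fall of the median over all measured transcripts, from 4.60 h at E14.5 to 3.48 h at E16.5. These hours are also without background subtraction, and with it the falls of the means were smaller. The subtracted means at E14.5 and E16.5 were 3.17 and 2.52 h for *Elavl1* and 4.92 and 4.18 h for *Elavl3*. For *Khsrp* they were 3.37 and 2.72 h, and for *Elavl2* 3.55 and 3.08 h. The share of all transcripts that passed in hours is not given here, so these counts have no background beside them. The 42 other regulators had medians of 3.95, 4.15 and 3.21 h, close to the 3.94, 4.05 and 2.83 h of the 9. Of 16 mRNAs known for AU-rich elements, 14, 12 and 14 were measured, with medians of 2.21, 2.27 and 1.47 h. That list ran from *Btg2* at 1.72 h to *Gap43*, an ELAVL4 target, at 8.37 h at E11.5.

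At E16.5, the label of *Zfp36l1* and *Zfp36l2*, as a ratio to that of the typical gene of the library, was much lower than at the earlier stages. Label content is the conversion rate at 0 h, after 20 h of 4sU, divided by the median rate of the library. That median was 1.02% to 1.45% at E11.5, 1.04% to 1.21% at E14.5 and 1.78% to 1.88% at E16.5. With this higher median, a lower label content at E16.5 is a lower ratio and need not be a lower conversion rate. The conversion rates of *Zfp36l2* before division overlapped between E16.5 and both earlier stages. Those of *Zfp36l1* at E16.5 lay below all replicates of E14.5 and overlapped those of E11.5. Of the 9 genes, 3 differed between stages by limma's F test at an adjusted p under 0.05, against 17.3% of 12522 genes. These were *Zfp36l1*, *Zfp36l2* and *Elavl3*. All 3 also passed between E16.5 and each earlier stage, where 17% of genes did, and none of the 9 passed from E11.5 to E14.5, where 0.152% did and 1 of the 9 had an unadjusted p under 0.05.

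*Zfp36l1* had a label content of 1.06, 1.07 and 1.05 times the library median at E11.5, 1.10, 1.11 and 1.20 at E14.5, and 0.612, 0.545 and 0.642 at E16.5. *Zfp36l2* was at 0.983, 1.12 and 1.05, then 1.00, 1.12 and 1.05, then 0.642, 0.590 and 0.547. Both fell to a like level at E16.5 with no overlap with the earlier stages. From E14.5 to E16.5 the log2 change was -0.93 ± 0.07 (adjusted p = 0.00022) and -0.84 ± 0.08 (adjusted p = 0.00050). Of 10668 transcripts with an E11.5 half-life, 2.61% had a larger fall than *Zfp36l1* and 3.59% a larger fall than *Zfp36l2*.

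*Elavl3* went the other way, from 0.857, 0.848 and 0.841 at E11.5 and 0.869, 0.843 and 0.915 at E14.5 to 1.08, 1.10 and 1.10 at E16.5. E16.5 lay above both other stages, and the log2 change from E14.5 was 0.32 ± 0.05 (adjusted p = 0.0041). *Elavl2* rose from 0.892 ± 0.03 at E11.5 to 1.03 ± 0.02 at E16.5 (log2 change 0.21 ± 0.06; adjusted p = 0.036). That call was lost with another centring (adjusted p = 0.052), with the replicate block (0.059) and without any of 7 single replicates, E11.5 A, B or C, E14.5 A, or E16.5 A, B or C (0.051 to 0.11). *Elavl1*, *Elavl4*, *Pum2* and *Khsrp* stayed between 0.88 and 1.12 on average, and *Zfp36* ranged from 0.768 to 1.37 over single libraries.

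**Figure D4:**
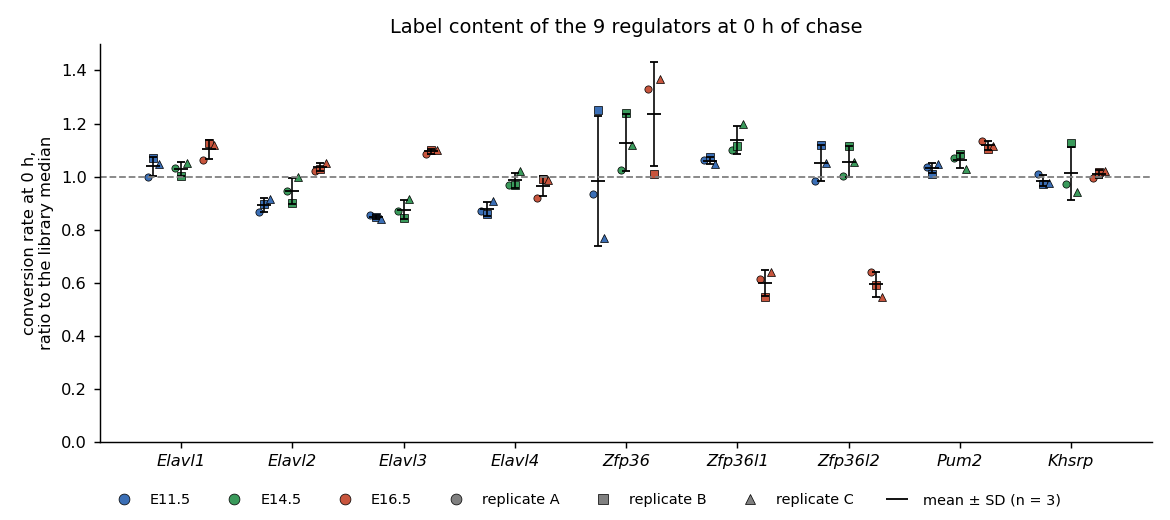
Conversion rate at 0 h of chase divided by the median rate of the same library (vertical axis from 0; the dashed line marks 1) for the 9 genes by stage; points are replicates A, B and C, bars the mean ± SD (n = 3). At E16.5 all replicates of Zfp36l1 and Zfp36l2 lie between 0.545 and 0.642, and those of Elavl3 between 1.08 and 1.10.

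Label content also differed between stages for cell type markers. All 6 radial glia and progenitor markers had a lower label content at E16.5 than at E14.5 (log2 -1.15 to -0.49), as did 3 of 3 intermediate progenitor markers (-1.03 to -0.50). Of 6 neuronal markers, 5 had a higher one (all 6 between 0.26 and 0.45). Of 2 interneuron markers tested, *Dlx2* had a lower one (-0.78 ± 0.17, adjusted p = 0.018) and *Dlx1* was at -0.11 ± 0.15. None of these passed from E11.5 to E14.5. Transcripts with a half-life under 2.5 h at E11.5 (n = 462) had a median log2 change of -0.09 from E14.5 to E16.5 and a 5th percentile of -0.98, beside 0.01 and -0.72 over all transcripts. The part of cell type or of half-life in the label of *Zfp36l1*, *Zfp36l2* and *Elavl3* was not tested. Of 40 other regulators tested from E14.5 to E16.5, 8 passed, 4 higher and 4 lower, against 17% of all genes. Among these 8 were *Qk* (-0.73 ± 0.05) and *Msi2* (-0.52 ± 0.05), both lower, and *Celf5* (0.38 ± 0.09), higher.

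Transcripts carrying the motifs of these proteins had shorter half-lives at each stage. With 0, 1, 2 and 3 or more TATTTAT matches, the median half-life at E14.5 was 4.73 ± 0.19, 4.25 ± 0.18, 3.97 ± 0.22 and 3.93 ± 0.20 h (mean ± SD of 3 replicate medians; n = 6369, 2116, 769 and 492 transcripts). Between the first and last class it dropped from 4.55 ± 0.47 to 3.64 ± 0.34 h in E11.5 cells, and from 3.58 ± 0.07 to 2.75 ± 0.04 h in E16.5 cells. For TGTANATA the medians with 0 matches were 4.53 ± 0.48, 4.70 ± 0.18 and 3.55 ± 0.07 h in the order of stages, and those with 3 or more were 3.56 ± 0.33, 3.78 ± 0.19 and 2.75 ± 0.09 h.

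The difference between transcripts with at least 1 TATTTAT and those with none was -0.65, -0.60 and -0.58 h in the order of stages. For TGTANATA it was -0.63, -0.59 and -0.53 h. 3′ UTR length rose with the matches, from a median of 1037 bases with no TATTTAT to 3602.5 with 3 or more at E14.5. Within 3′ UTRs of 1000 to under 2000 bases the gap was smaller. There the medians without the heptamer were 4.36 ± 0.46, 4.52 ± 0.21 and 3.39 ± 0.08 h in the order of stages, and those with at least 1 were 3.99 ± 0.43, 4.15 ± 0.16 and 3.06 ± 0.06 h. For the octamer in the same lengths they were 4.38 ± 0.47, 4.55 ± 0.19 and 3.39 ± 0.07 h without it and 3.89 ± 0.36, 4.08 ± 0.18 and 3.05 ± 0.05 h with at least 1. No test was run over transcripts, and base composition was not matched.

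**Figure D5:**
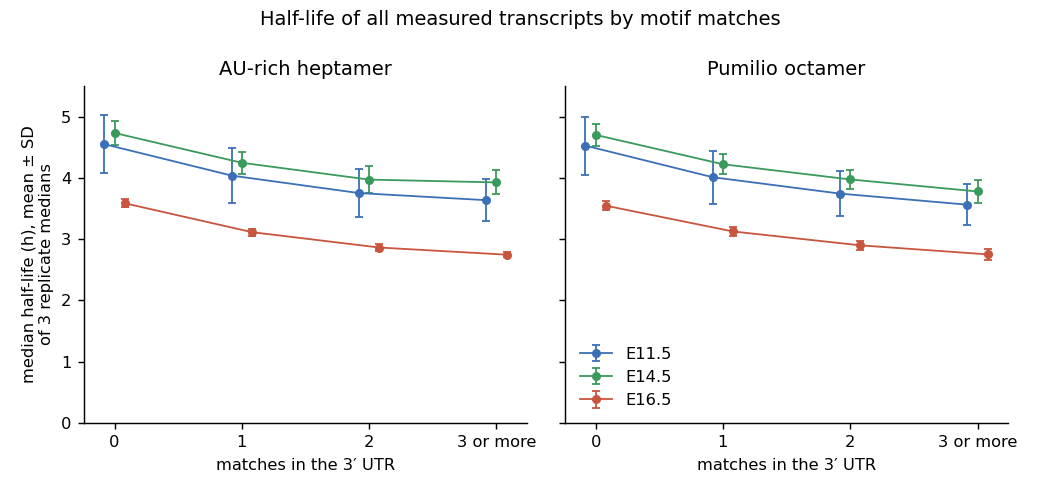
Median half-life in hours (vertical axis from 0) of all measured transcripts by the number of matches in the longest 3′ UTR to the AU-rich heptamer (left) and the Pumilio octamer (right), with 1 line per stage; points are means of 3 replicate medians and bars their SD. Medians step down from 0 to 3 or more matches at each stage, and E16.5 lies below the other stages throughout.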

How the data were processed

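Per-gene tables of 9 replicates, each with 5 chase times, were analysed. Reads had been processed by the authors in SlamDunk v0.4.3 (mm10, exons of GENCODE mouse M24), and they deposited, per gene, the counts of covered T positions, the conversion rate (a fraction of covered T positions), CPM values and a half-life in hours with the R2 of an exponential fit. Whole reads could be recovered from 100% of the CPM values (within 0.01). Filters used by the study were kept for half-lives: covered T over 500, R2 over 0.6 and half-life under 24 h in all 3 replicates.

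Levels were tested on covered-T counts over 10 in all libraries with edgeR 4.0.16 (TMM, quasi-likelihood, Benjamini-Hochberg over all genes). Since 1 read covers many T positions, recovered reads were an alternative, as were DESeq2 1.42.0, other normalizations and filters, a replicate block, and each replicate left out. Z-scored half-lives and log2 label content were tested with limma 3.58.1 (R 4.3.3), because the regression package named in the study's methods was not used here. The main edgeR fit was checked on simulated data for E14.5 against E11.5 and for 12 h against 0 h at E16.5. It was also checked for the interaction of E16.5 against E11.5. Half-life fits and limma's F tests were simulated too, but the alternatives were not. The simulated half-lives had no background conversion, unlike the data, so they do not cover its effect. Outcomes of the simulations are not given here. Motifs were searched in GENCODE mouse release 21 3′ UTRs on GRCm38, in which 51678 of 53491 gene names matched.

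All 9 genes were named, and of 42 other regulators at most the 4 largest called rises and falls per comparison without overlap between replicates. Extremes of the AU-rich list, and *Qk*, *Msi2* and *Celf5* for label content, are also given, the last 3 chosen after their values were seen. The members, lists and tests were chosen with earlier results of these data known. Letters pair the chase times of a stage, because cells of a pool were divided over 5 wells, and deviations of libraries from one pool had a median correlation of 0.245 to 0.534. Letters of different stages are different embryos.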

Additional observations from a re-analysis of the deposited data

How the results depend on the processing

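Among the 9 genes, *Zfp36l1* lower and *Elavl3* higher sit near the 2-fold limit, and the counts move there. The count of genes lower in the first interval, E11.5 to E14.5, was 1, and became 0 with glmTreat and 2 in libraries at 12 h, which adds *Khsrp*. With single replicates left out it was 0 to 1, the 0 being without E14.5 C. The count higher at E16.5 than at E14.5 was 0, and 1 with DESeq2, with RLE factors and with recovered reads, each through *Elavl3*, and 0 to 1 with single replicates left out. At the adjusted p alone, 3 genes were higher at E16.5 than at E11.5, 5 with RLE factors (adding *Elavl4* and *Pum2*), and 2 to 5 with single replicates left out, the 5 being without E11.5 C and the 2 without E16.5 B. Chase tests past the adjusted p numbered 1, 0 and 6 at the 3 stages. With the replicate block, which pairs the wells of a pool, they numbered 3, 1 and 15, with no share over all genes to set beside them. At E11.5 none passed without a low count filter, and leaving out replicates gave 0 to 1 at E11.5 and 1 to 2 at E16.5. For the 12 h change between stages the block gave 1 where the fit without it gave 0. The block changed no count of genes called over 2-fold between stages. In hours without z-scoring, 2 of 8 genes differed in half-life where 0 did with z-scores, and *Elavl2* reversed, from a z-score difference of 0.04 to -1.05 h (adjusted p = 0.048) at E16.5 against E14.5. That alternative retains the lower median of all transcripts at E16.5 and does not subtract background conversion. The difference by TATTTAT with the shortest 3′ UTR was -0.58, -0.55 and -0.54 h in the order of stages, and with covered T over 2000 it was -0.62 and -0.60 h at the later 2 stages. For TGTANATA the shortest 3′ UTR gave -0.56 and -0.49 h, and covered T over 2000 gave -0.62 and -0.56 h, at E14.5 and E16.5. The causes of these shifts were not tested. Covered T positions of a read are not independent, 3 replicates per stage limit all tests, and *Zfp36* has too few converted T positions for a precise half-life.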
